A study of Mus musculus with 9 samples.

Results

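The respiratory chain and ATP synthase of mitochondria are built from proteins of the nuclear and the mitochondrial genome, and the genes described here are those encoded in the nucleus. Members were the rows of the deposited table whose symbol begins with Ndufa, Ndufb, Ndufc, Ndufs or Ndufv and a digit (complex I), is Sdha, Sdhb, Sdhc or Sdhd (complex II), or begins with Uqcr (complex III), Cox4 to Cox8 (complex IV) or Atp5 (complex V). Symbols carrying -ps, here only Cox5b-ps, were left out. This gave 87 rows of 22322, with 86 symbols because Atp5o has 2 identifiers. Ndufa4 and Ndufa4l2 were counted with complex IV, since the Ndufa4 protein is a subunit of that complex. Of the 87 rows, 80 reached a mean of 1 FPKM (fragments per kilobase of transcript, scaled to the library's fragments) over all libraries and were tested: 36 of 37 in complex I, 4 of 4 in complex II, 8 of 8 in complex III, 15 of 20 in complex IV and 17 of 18 in complex V.

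Complex I passes electrons from NADH to ubiquinone, complex II does so from succinate, complex III hands them on to cytochrome c, complex IV passes them to oxygen, and complex V uses the resulting proton gradient to make ATP. The catalytic core of complexes I, III, IV and V includes proteins made inside the mitochondrion, so nuclear and mitochondrial transcripts have to supply the same complexes. Long-term haematopoietic stem cells, which maintain blood formation for life, are known for low respiratory activity and a reliance on glycolysis while they are quiescent.

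RNA was measured in long-term haematopoietic stem cells (LT-HSCs) of C57BL/6 mice aged 6 to 8 weeks. Within the Lin- fraction of bone marrow, the sort took cells positive for c-Kit, Sca-1 and CD150 and negative for CD48 and CD135. There were 3 libraries from Cxcr3-/- mice, which lack a chemokine receptor gene, 3 from Cxcl10-/- mice, which lack the gene of one of its ligands, and 3 from wild-type (WT) mice. Each library came from 500 to 800 cells of 1 mouse, and polyA RNA was copied and amplified before sequencing. The sources used here do not describe how either allele was made, nor any litter or day of preparation.

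The expected counts (fragments assigned to a gene, with shared fragments divided) summed to between 12098498 and 17904629 per library, and the members took 2.77% to 4% of them. Cxcl10 had 112, 553 and 176 expected counts in the Cxcr3-/- libraries, 0 in each Cxcl10-/- library, and 36, 84 and 3 in the WT libraries. Cxcr3 had 0 in each Cxcr3-/- and Cxcl10-/- library and 0, 0 and 8 in WT, so its level could not check the Cxcr3-/- label. The 10 LT-HSC marker genes summed to 652 to 727 FPKM in Cxcr3-/-, 708 to 816 in Cxcl10-/- and 702 to 812 in WT libraries, and Cd48 and Flt3, which the sort selects against, to 8.79 to 26.5, 6.45 to 17.6 and 13.5 to 26.2 FPKM in that order. Kit was lower in Cxcl10-/- than in WT (log2 fold change -0.75 ± 0.17, adjusted p 0.026). The Cxcl10-/- libraries stood apart in other ways. Of their counts 3.57% to 4.13% came from genes of the mitochondrial genome, against 12.6% to 13.1% in WT, with 10.2% to 11.2% in Cxcr3-/-. Genes with a count above 0 numbered 12561 to 13910 in Cxcl10-/-, 14510 to 16023 in WT and 14618 to 18346 in Cxcr3-/- libraries. Spread was read as the SD of log2 CPM (counts divided by the TMM-scaled library size) among the 3 libraries of a genotype. Its median over all tested genes was 0.554 in Cxcl10-/-, 0.282 in WT and 0.346 in Cxcr3-/-.

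Members were abundant but also short transcripts, with a median length of 863 bases against 3027 over all tested genes. FPKM divides by length, so it sets short transcripts higher than counts do. The members' median level, as mean FPKM over the 9 libraries, was 504.2, against 10.7 for all 10866 tested genes. By complex the medians were 430.5 FPKM for I, 141.2 for II, 798.9 for III, 777.9 for IV and 697.0 for V, so the succinate dehydrogenase genes lay well under the rest. Among the tested genes of complex I the level was lowest for Ndufv1, which carries the flavin that accepts electrons from NADH, at 29.0 FPKM in Cxcr3-/-, 38.3 in Cxcl10-/- and 30.2 in WT. It was highest for Ndufb8, an accessory membrane-arm subunit, at 1180, 1810 and 1280 FPKM in the same order. Among those of complex II the lowest was Sdhc, a membrane anchor (62.5, 51.9 and 93.1 FPKM), and the highest Sdhb, the iron-sulphur subunit (247, 455 and 298 FPKM). Among those of complex III the pair was Uqcrc2, a core protein (60.5, 84.2 and 66.0 FPKM), and Uqcr11, a small subunit (1660, 2340 and 1520 FPKM). Among those of complex IV it was Cox4i2, an isoform (2.96, 4.76 and 3.42 FPKM), and Ndufa4 (1940, 2040 and 1810 FPKM). Among those of complex V it was Atp5d, the delta subunit of the catalytic head (74.3, 78.6 and 65.9 FPKM), and Atp5mpl, a small membrane subunit (1600, 1120 and 1200 FPKM). Subunits that meet in 1 complex therefore differed widely in transcript level per length in every genotype.

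In complex IV, isoforms for which tissues differ were read as shares of each family's FPKM. The ubiquitous Cox4i1 made up 99.6% of the Cox4i pair in Cxcr3-/-, 99.6% in Cxcl10-/- and 99.5% in WT, and Cox4i2, known as the lung and hypoxia isoform, the rest. The muscle isoforms Cox6a2 and Cox8b and the testis isoform Cox8c had 0 counts in each of the 9 libraries, and Cox6a1 and Cox8a supplied their families. Cox6b2, known as a testis isoform, was measured in every library and made up 5.97%, 8.62% and 8.19% of the Cox6b pair in Cxcr3-/-, 6.27%, 5.58% and 4.20% in Cxcl10-/-, and 5.30%, 8.24% and 7.78% in WT; these ranges overlapped. Cox7a1, the heart and muscle isoform, stayed at 1.07% of its family or below in each library. Ndufa4l2, which replaces Ndufa4 in hypoxic cells, had a count of 1 in 1 Cxcr3-/- and 1 WT library and 0 elsewhere. Cox7b2 had 26 counts in 1 Cxcl10-/- library, 4 in 1 WT library and 0 elsewhere. Ndufb11b, a copy of Ndufb11, had 1 count in 1 Cxcr3-/- library and 0 elsewhere, and the other Atp5o identifier had 0 throughout. These 7 rows made up the untested members.

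Nuclear respiratory genes that differed between Cxcl10-/- and WT LT-HSCs were higher in Cxcl10-/-, and 9 of the 12 belonged to complex I. Among the 12, at 1.54 to 2.23 times the WT level, were the complex I genes Ndufa8, Ndufb10, Ndufb7, Ndufa12, Ndufs6, Ndufs7, Ndufa13 and Ndufs3, with Uqcrq of complex III, Cox4i1 of complex IV and Atp5h of complex V. The 12 were 15% of the tested members; of all 10866 tested genes, 3.52% were called higher and 3.7% lower (edgeR quasi-likelihood test, Benjamini-Hochberg adjusted p under 0.05 over all tested genes). None of the 80 members was called lower. DESeq2 called 20 members higher and 0 lower, against 6.61% and 7.18% of all genes, and limma 22 and 0, against 6.1% and 3.18%. The median log2 fold change was 0.22 over the tested members and 0.06 over all tested genes. Bulk RNA does not tell fewer cells of a type from less RNA per cell.

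By complex, 9 of 36 genes of complex I (25%), 0 of 4 of complex II, 1 of 8 of complex III, 1 of 15 of complex IV and 1 of 17 of complex V were called higher. The median log2 fold changes were 0.33 for complex I, -0.44 for II, 0.16 for III, 0.09 for IV and 0.13 for V. Libraries of the groups did not overlap, with Cxcl10-/- higher, for 33 members, 21 of them in complex I, and with Cxcl10-/- lower for 4. Over all tested genes 14.8% did not overlap with Cxcl10-/- higher and 15.4% with Cxcl10-/- lower. The difference between complexes was not itself tested.

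**Figure D1:**
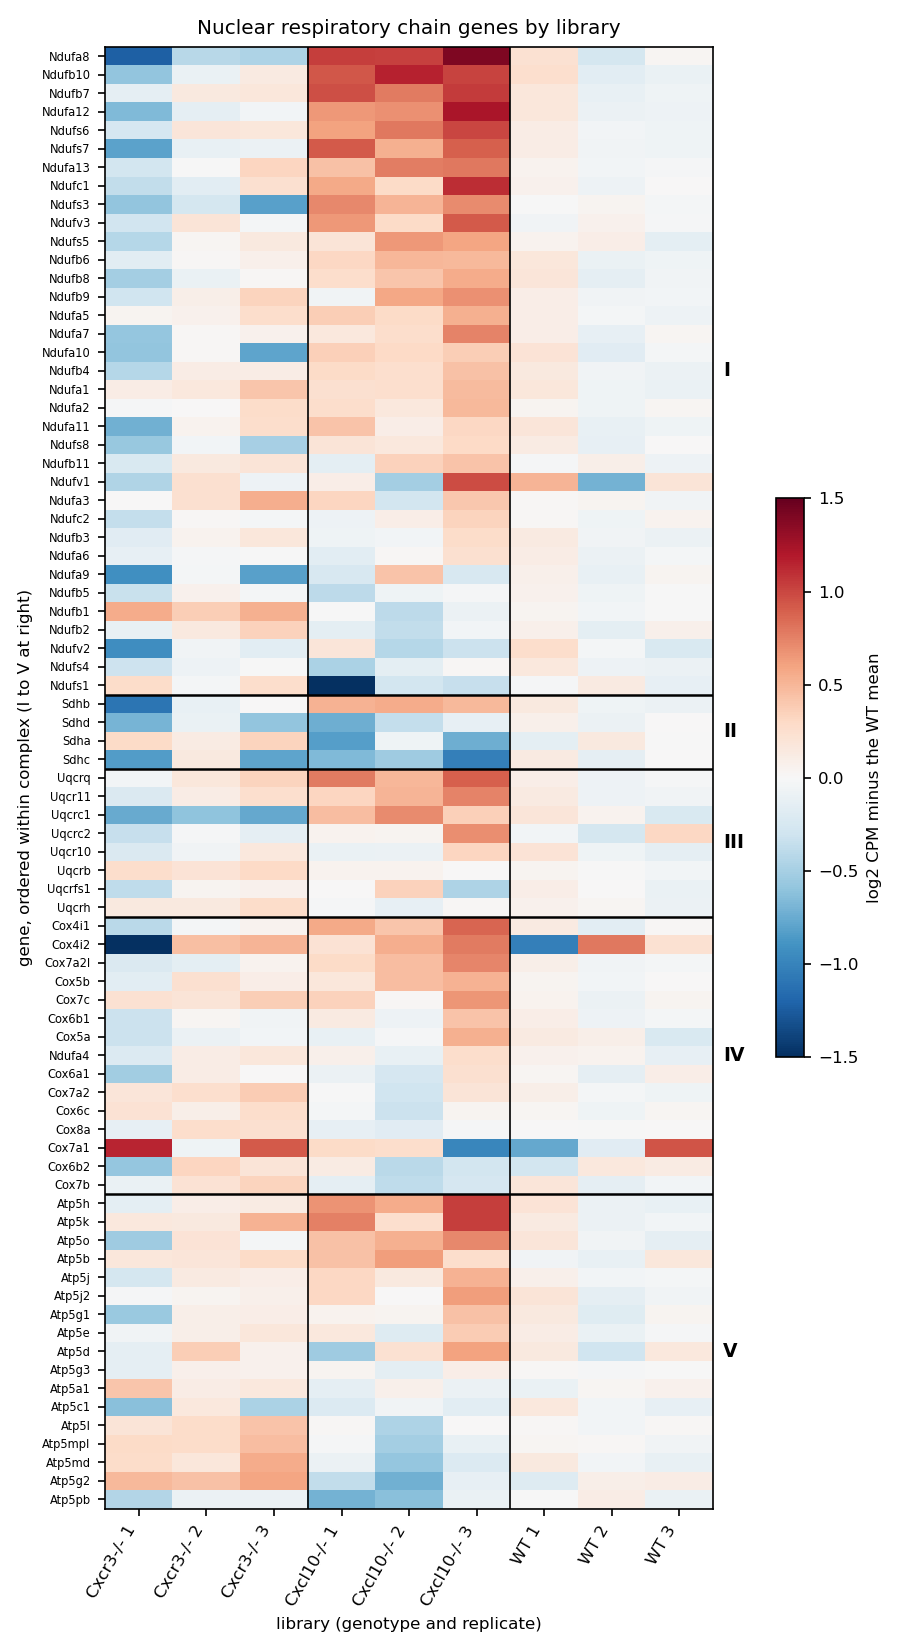
Level of 79 of the 80 tested members (down the page, grouped by complex I to V and ordered within it by the Cxcl10-/- mean) in each library (across), as log2 of CPM (counts divided by the TMM-scaled library size) plus 0.5, minus the WT mean, with colours ending at 1.5 in either direction. This order puts the complex I genes that are highest in Cxcl10-/- at the top of the page. Of the 36 tested complex I genes, 30 had a positive log2 fold change against WT and 6 a negative one. The median over complex I was 0.26, 0.28 and 0.48 in the 3 Cxcl10-/- libraries.

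Among the genes of the conserved core of complex I, present also in bacterial enzymes, were Ndufs7 and Ndufs3. Ndufs7 (ENSMUSG00000020153), which holds the last iron-sulphur cluster before ubiquinone, had 276, 211 and 273 CPM (counts divided by the TMM-scaled library size) in Cxcl10-/- and 158, 141 and 140 CPM in WT. Its log2 fold change was 0.80 ± 0.21 (SE, n = 3 each, adjusted p 0.042), and each Cxcl10-/- library lay above each WT library. Ndufs3 (ENSMUSG00000005510), of the same matrix arm, had 293, 254 and 292 CPM in Cxcl10-/- against 177, 183 and 175 CPM in WT, a log2 fold change of 0.65 ± 0.17 (adjusted p 0.044), also without overlap. Core genes that were not past the threshold had log2 fold changes of 0.22 ± 0.17 for Ndufs8, 0.24 ± 0.41 for Ndufv1, -0.18 ± 0.24 for Ndufv2 and -0.64 ± 0.32 for Ndufs1. Ndufs1, the largest subunit of complex I, had 27.2, 72 and 68.5 CPM in Cxcl10-/- and 86.2, 95.9 and 80.3 CPM in WT, without overlap.

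The accessory subunits of complex I surround that core. Ndufa8 (ENSMUSG00000026895), a disulphide-bonded protein facing the intermembrane space, had 421, 418 and 541 CPM in Cxcl10-/- and 240, 171 and 209 CPM in WT. It had the largest change of the 12, a log2 fold change of 1.16 ± 0.22 (adjusted p 0.0115). Ndufb10 (ENSMUSG00000040048), of the same protein type, had 574, 669 and 608 CPM in Cxcl10-/- and 358, 271 and 282 CPM in WT, a log2 fold change of 1.02 ± 0.19 (adjusted p 0.01). Ndufb7 (ENSMUSG00000033938), a further one, had 565, 495 and 598 CPM in Cxcl10-/- and 326, 268 and 276 CPM in WT. Its log2 fold change was 0.93 ± 0.15 (adjusted p 0.00593), and among the 12 it alone passed with any of the 9 libraries left out. With offsets for GC content and length, described below, its log2 fold change was 0.41 (edgeR, adjusted p 0.0746) and it was not called.

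Ndufa12, which docks where the assembly factor Ndufaf2 leaves, had 952, 976 and 1420 CPM in Cxcl10-/- and 679, 569 and 575 CPM in WT (log2 fold change 0.88 ± 0.19, adjusted p 0.0212). Ndufs6, a zinc-binding subunit of the NADH-oxidising arm, had 464, 530 and 614 CPM in Cxcl10-/- and 330, 297 and 293 CPM in WT (0.81 ± 0.16, adjusted p 0.0136). Ndufa13, also known as GRIM-19, had 606, 760 and 773 CPM in Cxcl10-/- and 464, 434 and 441 CPM in WT (0.68 ± 0.17, adjusted p 0.0321). For all 3 genes the lowest Cxcl10-/- library was above the highest WT library.

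Outside complex I, a single gene passed in each of complexes III, IV and V. Uqcrq, a small subunit of complex III, had 411, 338 and 447 CPM in Cxcl10-/- and 257, 227 and 237 CPM in WT, a log2 fold change of 0.73 ± 0.16 (adjusted p 0.0212). Cox4i1, the largest nuclear subunit of complex IV and its main regulatory one, had 828, 746 and 1020 CPM in Cxcl10-/- and 614, 501 and 565 CPM in WT, a log2 fold change of 0.63 ± 0.16 (adjusted p 0.0406). Atp5h, subunit d of the stalk that holds the catalytic head of ATP synthase in place, had 930, 853 and 1190 CPM in Cxcl10-/- and 668, 545 and 538 CPM in WT, a log2 fold change of 0.77 ± 0.16 (adjusted p 0.0149). None of these groups overlapped. Complex II had no called gene: the log2 fold changes were 0.52 ± 0.23 for Sdhb, -0.38 ± 0.20 for Sdhd, -0.51 ± 0.21 for Sdha, the flavin subunit, and -0.73 ± 0.27 for Sdhc. Sdhc had 87.7, 96.1 and 68.1 CPM in Cxcl10-/- and 153, 127 and 140 CPM in WT, without overlap.

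**Figure D2:**
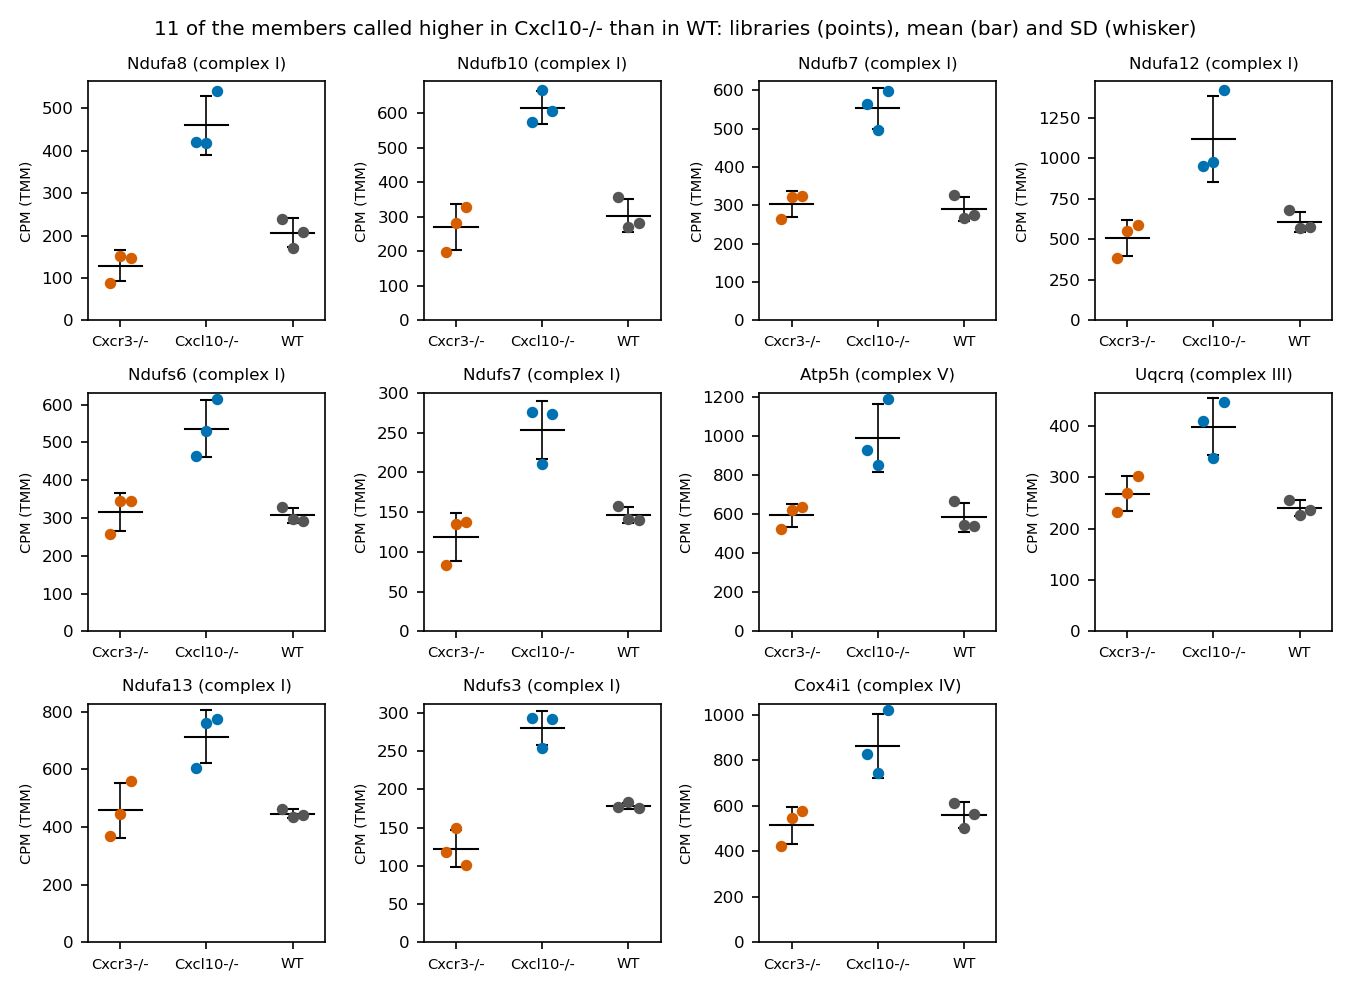
CPM (vertical axis, from 0) of 11 of the 12 genes called higher in Cxcl10-/- than in WT, in the libraries of each genotype (points), with the mean (bar) and SD (whisker). In each panel the 3 Cxcl10-/- points lie above the 3 WT points, with Ndufa8 at 418 to 541 CPM in Cxcl10-/- against 171 to 240 CPM in WT.

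Several measurements moved with this comparison. Endothelial markers summed to 385 to 559 FPKM in Cxcl10-/- and 68.2 to 87.1 FPKM in WT, with 4 of 10 tested markers higher. Stromal and bone markers summed to 35.8 to 252 FPKM against 15.5 to 17.6 FPKM, with 3 of 5 tested higher. Adipoq and Col1a1 were at 0 in every WT library, and Bglap in all 9 libraries. Erythroid markers summed to 84.1 to 626 FPKM in Cxcl10-/- against 48.7 to 92.1 FPKM in WT, with 1 of 5 tested higher. Neutrophil markers summed to 14.5 to 180 FPKM in Cxcl10-/- and 11.1 to 22.8 FPKM in WT, with 0 of 3 tested past the threshold and a median log2 fold change of 2.8. Markers of monocytes and macrophages summed to 387 to 448 FPKM in Cxcl10-/- and 555 to 683 FPKM in WT, and 0 of 4 tested passed. T and NK cell markers summed to 171 to 225 FPKM in Cxcl10-/- and 332 to 401 FPKM in WT, with 1 of 2 tested lower. The part of these cell types, and of the lower mitochondrial share, in the members' difference was not tested.

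GC content of the transcript also moved with the change. Across genes, Spearman's rho between GC content and log2 fold change was 0.449 over 10856 tested genes and 0.318 over the 80 members, which share libraries and are not independent replicates. The 40 members at or above the median GC content of 51.4% had a median log2 fold change of 0.33 and held 9 of the 12 called genes, and the 40 below it had 0.07 and held 3. With GC and length offsets in the fit, 8 members were called higher and 3 lower, against 2.79% and 1.98% of all genes. The members' median became 0.09, against 0.04 over all tested genes. Of the 12, 6 were still called: Ndufa8 (log2 fold change 0.81), Ndufs6 (0.74), Ndufa12 (0.67), Atp5h (0.66), Ndufb10 (0.64) and Uqcrq (0.62). Among those no longer called by edgeR were Ndufb7 (0.41, adjusted p 0.0746), Ndufs3 (0.33, adjusted p 0.312) and Ndufs7 (0.25, adjusted p 0.427). Cox4i1 (0.14, adjusted p 0.567) and Ndufa13 (0.12, adjusted p 0.702) were lost as well. Ndufc1 (0.94) and Cox7c were added as higher, and Atp5g2 (-0.99), Cox6a1 and Cox8a as lower. Under quantile normalisation the split was 12 members higher and 6 lower of 80, against 429 higher and 486 lower of 10866 tested genes. Median signs of complexes I and II held under both, at 0.15 and 0.18 for I and -0.51 and -0.55 for II, whereas complex V turned to -0.10 and -0.06, and complex IV to -0.13 under quantile normalisation.

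**Figure D3:**
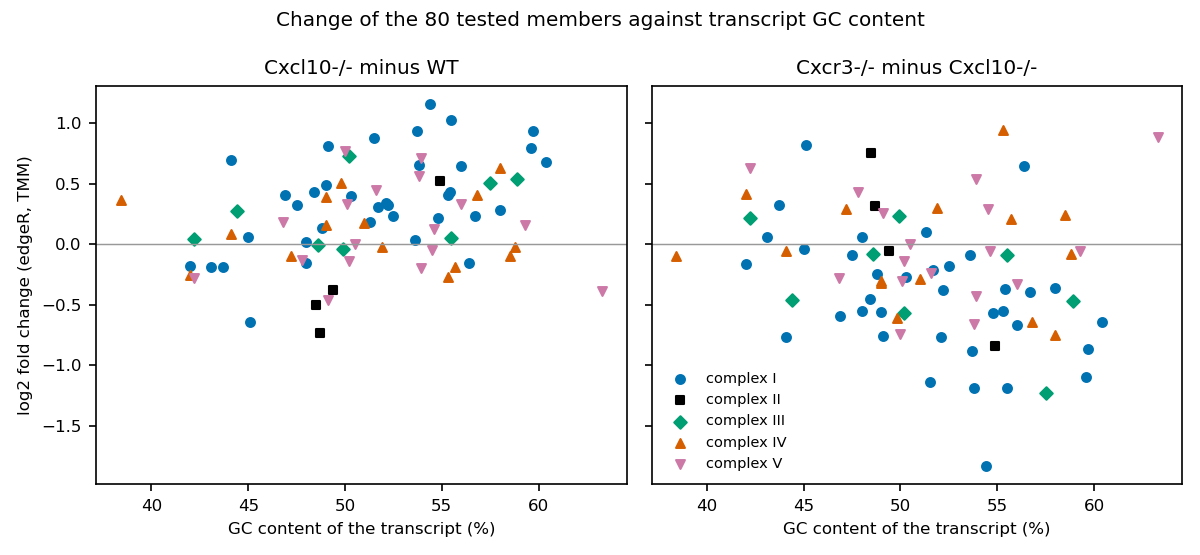
Log2 fold change (vertical axis) against GC content of the longest coding transcript (horizontal axis, percent) for the 80 tested members, with symbols by complex, for Cxcl10-/- minus WT (left) and Cxcr3-/- minus Cxcl10-/- (right). Points drift upward with GC content on the left, rho 0.318, and downward on the right, rho -0.3.

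Leaving out a WT library reduced the number of called members most, to 5, 1 and 2 without WT replicates 1, 2 and 3, against 8 to 15 without any library of the other groups. The direction of all 12 genes was the same in every one of these fits. All genes called in either direction fell too, from 785 of 10866 to 229, 193 and 253 without WT replicates 1, 2 and 3. Without WT replicate 2, the 1 called member of 80 thus stood against 193 of 10866 genes.

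Between Cxcr3-/- and WT no gene was called by edgeR, member or other (0% of 10866), and limma called 0 as well. DESeq2 called 68 genes (0.626%), 0.12% higher and 0.506% lower, of which 1 was a member, Uqcrc1, lower in Cxcr3-/-. At an unadjusted p under 0.05 there were 8 members, against 681 of all genes (6.27%). The median log2 fold change was 0.00 over members and 0.02 over all tested genes, with medians by complex from -0.37 (II) to 0.07 (V). The median SE over members was 0.17 in log2 units. Groups did not overlap for 13 members with Cxcr3-/- higher, 7 of them in complex V, and for 5 with Cxcr3-/- lower, against 9.81% and 9.04% of all genes.

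The 5 members with the smallest p, none of them past the threshold, were in 3 complexes. Uqcrc1 (ENSMUSG00000025651), a core protein of complex III, had 109, 121 and 108 CPM in Cxcr3-/- and 209, 192 and 157 CPM in WT, a log2 fold change of -0.72 ± 0.17 (adjusted p 0.552, DESeq2 0.0124). Ndufb1 was at 0.49 ± 0.16, Ndufs3 at -0.54 ± 0.17, Ndufa8 at -0.67 ± 0.22 and Atp5g2 at 0.50 ± 0.17, with adjusted p values of 0.644 to 0.667. In all 5 the libraries of the groups did not overlap.

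In Cxcr3-/- against Cxcl10-/- LT-HSCs, 19 of 80 members were lower (23.8%) and 5 higher (6.25%), against 5.41% lower and 5.1% higher of all tested genes, by the same edgeR test. DESeq2 called 25 members lower and 6 higher, against 8.79% and 7.91% of all genes, and limma 25 and 5, against 7.81% and 4.69%. Complex I held 12 of the 19 lower genes and 1 of the 5 higher ones, and complex V held 2 lower and 3 higher. This comparison shares its Cxcl10-/- libraries with the comparison against WT, so it is no separate evidence on the genes called there. The median log2 fold change was -0.26 over members and -0.05 over all tested genes. By complex it was -0.42 for I, 0.13 for II, -0.27 for III, -0.09 for IV and -0.06 for V. Groups did not overlap for 29 members with Cxcr3-/- lower and 12 with Cxcr3-/- higher, against 14.4% and 14.5% of all genes.

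**Figure D4:**
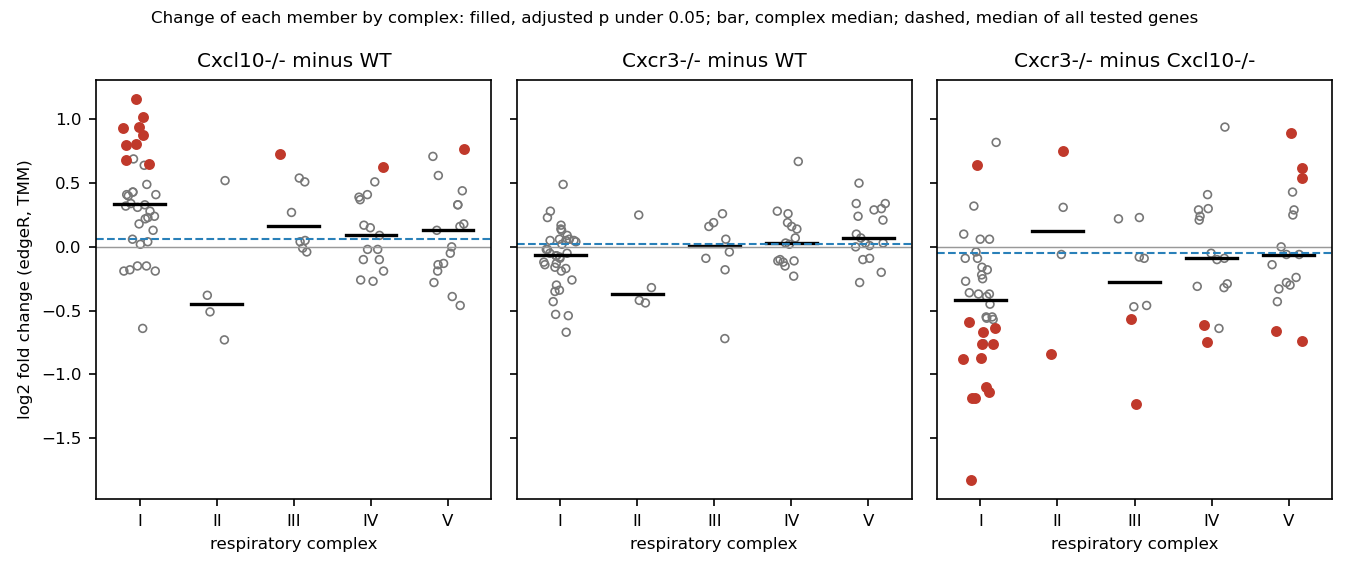
Log2 fold change (vertical axis) of each tested member by complex (horizontal axis) in the 3 comparisons, with called genes filled, complex medians as bars and the median of all tested genes dashed. The complex I median is 0.33 for Cxcl10-/- minus WT, -0.06 for Cxcr3-/- minus WT and -0.42 for Cxcr3-/- minus Cxcl10-/-.

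The lower genes of complex I in Cxcr3-/- were led by Ndufa8, with 87.6, 153 and 148 CPM in Cxcr3-/- against 421, 418 and 541 CPM in Cxcl10-/-. Its log2 fold change of -1.83 ± 0.23 (adjusted p 0.00116) was the largest of any member in any comparison. Ndufs3 followed with 118, 149 and 101 CPM in Cxcr3-/- against 293, 254 and 292 CPM in Cxcl10-/- (-1.19 ± 0.18, adjusted p 0.00267). Log2 fold changes were -1.19 for Ndufb10, -1.14 for Ndufa12, -1.10 for Ndufs7, -0.87 for Ndufb7, -0.76 for Ndufs6 and -0.64 for Ndufa13. Further genes were Ndufc1, a small membrane subunit, at -0.76, Ndufv3, an accessory subunit beside the flavin site, at -0.67, and Ndufb8 at -0.59. Their adjusted p values were 0.00405 to 0.0468.

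In complex II the catalytic pair moved in opposite directions. Sdha had 269, 239 and 278 CPM in Cxcr3-/- and 124, 210 and 132 CPM in Cxcl10-/-, a log2 fold change of 0.75 ± 0.21 (adjusted p 0.0384). Sdhb had 164, 326 and 354 CPM in Cxcr3-/- and 505, 516 and 494 CPM in Cxcl10-/-, a log2 fold change of -0.84 ± 0.23 (adjusted p 0.0392). Each call was lost without any of 8 of the 9 libraries taken singly, so these 2 calls were among the least stable. The anchors Sdhc and Sdhd were at 0.31 ± 0.27 and -0.06 ± 0.20 and did not pass.

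In complexes III and IV the called genes were lower in Cxcr3-/-. Uqcrc1 had 109, 121 and 108 CPM in Cxcr3-/- against 254, 302 and 237 CPM in Cxcl10-/-, a log2 fold change of -1.23 ± 0.17 (adjusted p 0.00218), and Uqcrq was at -0.57 ± 0.16 (adjusted p 0.0415). Cox4i1 was at -0.75 ± 0.16 (adjusted p 0.0156). Cox7a2l, of the Cox7a family, had 296, 312 and 357 CPM in Cxcr3-/- and 421, 476 and 574 CPM in Cxcl10-/- (-0.61 ± 0.15, adjusted p 0.0262). As a share of its family's FPKM, Cox7a2l made up 25% ± 0.535 in Cxcr3-/-, 38.7% ± 3.84 in Cxcl10-/- and 30.3% ± 0.342 in WT (SD, n = 3 each), and Cox7a2 made up 74.2% ± 0.601, 60.9% ± 3.84 and 69.1% ± 0.709. The ranges of the 3 genotypes did not overlap for either isoform.

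Complex V held genes of both directions. Atp5h (log2 fold change -0.74 ± 0.16, adjusted p 0.0138) and Atp5o (-0.66 ± 0.18, adjusted p 0.0411), which sits on top of the same stalk, were lower in Cxcr3-/-. Atp5g2 (ENSMUSG00000062683), which encodes a subunit of the rotating c ring, had 454, 441 and 488 CPM in Cxcr3-/- and 252, 197 and 299 CPM in Cxcl10-/-, a log2 fold change of 0.89 ± 0.17 (adjusted p 0.00896). It was called with each of the 9 libraries left out in turn. Atp5md (0.62 ± 0.17, adjusted p 0.0328) and Atp5mpl (0.54 ± 0.15, adjusted p 0.0397), small membrane subunits linked to pairing of the enzyme into dimers, were also higher. Together with Ndufb1 of complex I (312, 272 and 305 CPM in Cxcr3-/- against 210, 161 and 199 CPM in Cxcl10-/-, 0.64 ± 0.16, adjusted p 0.0227) and Sdha, they were the 5 higher members.

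Atp5g1, Atp5g2 and Atp5g3 encode the same mature c subunit, so their balance was read as shares. Atp5g2 made up 31.9%, 24.8% and 26.9% of the 3 genes' FPKM in Cxcr3-/-, 16.2%, 13.8% and 15.9% in Cxcl10-/-, and 17.3%, 22.8% and 21.5% in WT. Atp5g1 made up 37.3%, 46.7% and 45.5% in Cxcr3-/-, 52.2%, 55.8% and 56.7% in Cxcl10-/-, and 53.0%, 45.9% and 49.1% in WT. The share of Atp5g2 was higher in every Cxcr3-/- library than in every Cxcl10-/- or WT library, and Atp5g3 averaged 29.0%, 29.8% and 30.2% in the 3 genotypes. Atp5g1 had fractional counts in all 9 libraries, as did Ndufb2, Ndufb6, Ndufc1 and Atp5md, so its fragments were partly shared with other loci and its share is uncertain.

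These counts also depended on settings. With GC and length offsets 9 members were higher and 9 lower in Cxcr3-/- than in Cxcl10-/-, against 3.66% and 4.35% of all genes. Under quantile normalisation 15 of 80 members were higher and 14 lower, against 717 higher and 614 lower of 10866 tested genes. The offsets kept 9 of the 19 lower genes (Ndufa8, Ndufb10, Ndufa12, Ndufs3, Ndufs6, Ndufb8, Ndufc1, Uqcrc1 and Atp5h) and 4 of the 5 higher genes (Atp5g2, Ndufb1, Atp5mpl and Sdha). Complex I kept a negative median (-0.08 and -0.21), while that of complex V became 0.23 and 0.15 under the same settings and that of complex IV 0.07 under quantile normalisation. Over all tested genes the medians were -0.04 with the offsets and 0.0 under quantile normalisation. The complex I median with the offsets was thus near that of all genes, and 13 of its 36 genes were positive. Endothelial markers summed to 50.7 to 88.3 FPKM in Cxcr3-/- and 385 to 559 FPKM in Cxcl10-/-, with 4 of 10 tested lower. Stromal and bone markers summed to 16.9 to 20.5 against 35.8 to 252 FPKM, with 3 of 5 tested lower and 1 higher. Erythroid markers summed to 48.8 to 56.9 against 84.1 to 626 FPKM, with 3 of 5 tested lower. Megakaryocyte markers went the other way, at 456 to 571 against 263 to 427 FPKM, with 1 of 5 tested higher. The part of these cell types in the difference was not tested. Without Cxcr3-/- replicate 1, the library with the lowest members' median (-0.24 against the WT mean), 7 members were lower and 1 higher. The lower members numbered 11 without Cxcl10-/- replicate 3 and 12 without WT replicate 3. The higher members numbered 1 without Cxcr3-/- replicate 3, 2 without Cxcl10-/- replicate 2 or WT replicate 2 or 3, and 3 without Cxcr3-/- replicate 2 or WT replicate 1.

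A test of any difference among the 3 genotypes called 16 of 80 members, against 8.39% of all tested genes. These were 10 in complex I, 0 in II and 2 each in III, IV and V.

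Promoter sequence was examined for sites of factors known to drive respiratory genes: the ETS family to which GABP belongs (CCGGAAG), and YY1 (AAGATGGC), each searched on both strands from 250 bases before to 50 after the RefSeq start (GRCm38.p6). Of 86 member symbols 69 had a promoter entry. The ETS letters were in 24.6% of the members' promoters, 22% of those of tested genes and 9.93% of those of all 27025 genes, and the YY1 letters in 14.5%, 5.71% and 3.19%, in the same order. Of the 12 genes higher in Cxcl10-/- than in WT, 9 had an entry, of which 3 held the ETS letters and 2 the YY1 letters. The 3 ETS promoters are shown, as genes called in both comparisons with Cxcl10-/-, as the 80 bases before the start on the gene's strand, with the motif in capitals (CTTCCGG is the ETS motif on the other strand).
Ndufb7: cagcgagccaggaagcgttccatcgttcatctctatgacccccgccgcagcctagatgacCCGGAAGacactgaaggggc
Ndufs3: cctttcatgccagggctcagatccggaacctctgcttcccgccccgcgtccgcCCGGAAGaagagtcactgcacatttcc
Atp5h: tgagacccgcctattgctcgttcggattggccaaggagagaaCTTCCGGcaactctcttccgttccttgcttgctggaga
They lie at chr8:83566678-83566757 (plus strand), chr2:90904722-90904801 and chr11:115419920-115419999 (both minus strand), in the order printed, and the motif's first base is 20, 27 and 38 bases before the start. GENCODE M21 places an outer start of each gene further upstream, so the stretches lie partly or wholly inside its gene span. A match describes letters only, not a bound site.

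Members were also set against the mitochondrial genome, which encodes the other subunits of complexes I, III, IV and V. In Cxcl10-/- against WT, 12 of its 13 protein-coding genes were lower and none higher, with a median log2 fold change of -1.56. The exception was mt-Nd3 (log2 fold change -0.10 ± 0.16), and with GC and length offsets 9 of the 13 were lower and mt-Nd3 was higher. In Cxcr3-/- against WT 0 of 13 passed, with a median of -0.14, and in Cxcr3-/- against Cxcl10-/- all 13 were higher (10 with the offsets), with a median of 1.57. For complex I the nuclear members summed to 16625 ± 2155 FPKM in Cxcr3-/-, 22924 ± 1847 in Cxcl10-/- and 16271 ± 685 in WT, and its mitochondrial genes to 19004 ± 2299, 7328 ± 1169 and 17897 ± 1209 FPKM (SD, n = 3 each). The ratio of mitochondrial to nuclear FPKM over all these genes was 2.82, 2.55 and 2.22 in Cxcr3-/-, 0.798, 0.795 and 0.600 in Cxcl10-/-, and 3.22, 3.35 and 3.19 in WT. Every Cxcl10-/- library was below every library of the other genotypes, and every Cxcr3-/- library below every WT library. FPKM is relative to all transcripts of a library, so the mitochondrial and nuclear sums are not independent. With the mitochondrial genes left out before scaling, 10 of the 12 members called against WT still passed, all but Ndufs3 and Ndufs7. Their log2 fold changes were then 0.64 (adjusted p 0.0506) and 0.78 (adjusted p 0.0502), against 0.65 and 0.80 with those genes kept. Both fits used TMM factors, so leaving the mitochondrial genes out is a weak check on scaling. With total counts only, the members' median was 0.31 and 22 of 80 were higher, against 566 of 10866 genes.

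**Figure D5:**
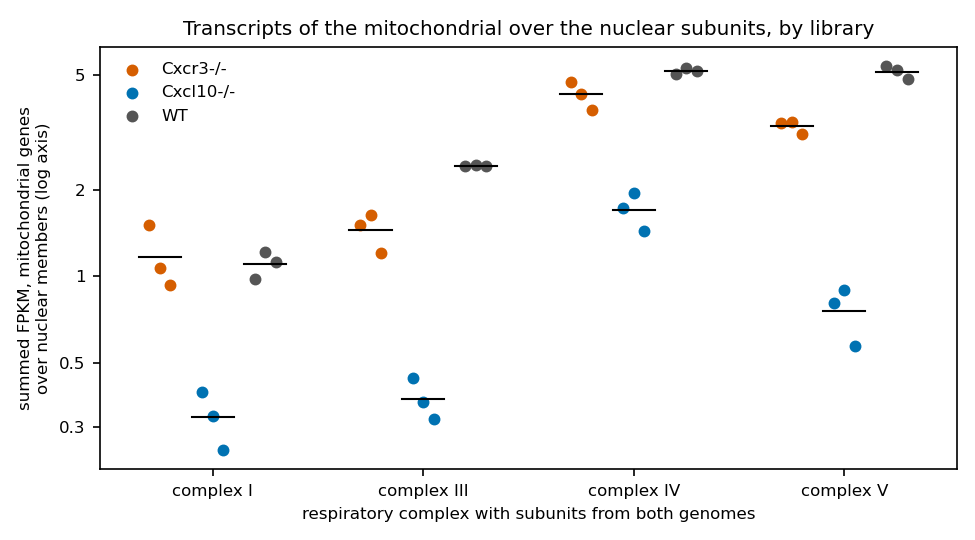
Summed FPKM of the mitochondrial genes of a complex divided by that of its nuclear members (vertical log axis) in each library (points, with the mean as a bar), for the complexes with subunits from both genomes. For complex V the Cxcr3-/- libraries lie between 3.11 and 3.44, the Cxcl10-/- libraries between 0.572 and 0.895, and the WT libraries between 4.83 and 5.37.

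By complex the same ratio averaged 1.17, 0.323 and 1.10 for complex I in Cxcr3-/-, Cxcl10-/- and WT, 1.45, 0.375 and 2.42 for III, 4.28, 1.70 and 5.17 for IV, and 3.32, 0.758 and 5.13 for V. In the Cxcr3-/- libraries complex I overlapped WT in this ratio, while complexes III, IV and V were below WT in every library. The share of the members' FPKM that complex I took was 34.1% ± 1.38 in Cxcr3-/-, 40.1% ± 1.34 in Cxcl10-/- and 36.1% ± 0.414 in WT (SD, n = 3 each), and that of complex V was 26.8% ± 0.667, 23.3% ± 1.2 and 25.3% ± 0.0771. For both, the libraries of the 3 genotypes did not overlap.

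None of 17 tested complex I assembly factors passed in any comparison (edgeR), with a median log2 fold change of 0.37 in Cxcl10-/- against WT. Of 10 assembly factors of complexes II and III, Uqcc3 (1.2 ± 0.19, adjusted p 0.00593) and Uqcc2 (0.79 ± 0.19, adjusted p 0.0309) were higher in Cxcl10-/- than in WT; both help form complex III. Uqcc3 had 167, 159 and 165 CPM in Cxcl10-/- and 77.4, 57.6 and 78.7 CPM in WT. Of 23 factors of complex IV, Cox17, a copper carrier, was higher (0.83 ± 0.16, adjusted p 0.011), as was Cox11, which inserts copper (1.91 ± 0.50, adjusted p 0.0408), and Coa5 was lower (-0.90 ± 0.22, adjusted p 0.0351). Of all tested genes, 3.52% were higher and 3.7% lower in this comparison. With GC and length offsets in edgeR, Uqcc3 (0.96, adjusted p 0.0275) and Cox17 (0.97, adjusted p 0.00785) passed, as did Cox16 (1.24, adjusted p 0.00431), another complex IV factor. Uqcc2 (0.30, adjusted p 0.289), Cox11 (1.78, adjusted p 0.0784) and Coa5 (-0.70, adjusted p 0.102) did not pass with the offsets. Etfb, a subunit of the flavoprotein that feeds electrons from fatty acid oxidation into the chain, was higher in Cxcl10-/- (640, 814 and 973 CPM) than in WT (417, 348 and 346 CPM), with a log2 fold change of 1.13 ± 0.20 (adjusted p 0.00783), and with the offsets 0.66 (adjusted p 0.027). Without the offsets it was the only one of 13 other subunits and carriers to pass in this comparison, and with them 2 passed.

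In Cxcr3-/- against Cxcl10-/- the called genes of the assembly and carrier lists were lower in the main fit. They were Etfb (1 of 13 other subunits and carriers), Uqcc3 (1 of 10), Cox14, Cox17 and Coa3 (3 of 23 complex IV factors) and Fmc1 (1 of 5 complex V factors). Of all tested genes 5.41% were lower and 5.1% higher. With GC and length offsets 2 of the 13 were lower and 1 higher, and 3 complex IV factors were lower. Of the complex II and III list and the complex V list 0 passed with the offsets, against 4.35% lower and 3.66% higher of all genes. Of 12 tested regulators of respiratory gene transcription, among them Nrf1, Gabpa, Yy1 and Tfam, none passed in any comparison (edgeR). Their median log2 fold change was -0.42 in Cxcl10-/- against WT and 0.47 in Cxcr3-/- against Cxcl10-/-.

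Exons of 26 tested members overlap a gene on the opposite strand and 5 overlap one on the same strand in GENCODE M21. Strand use in counting is not given in the sources used here. The called genes concerned include Ndufs3 (Kbtbd4), Ndufs6 (Mrpl36), Ndufa13 (Tssk6), Cox4i1 (Emc8), Ndufb1 (Cpsf2), Atp5md (Taf5), Ndufb8 (Gm20538, same strand), Atp5g2 (Mir688, same strand) and Atp5o, so their reads may be mixed with those of the partner named.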

How the data were processed

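The deposited table holds, per the file headers, FPKM and counts per library, made by the authors. The count columns deposited by the authors hold expected counts that were not normalized: 87.1% of their values are whole, and their totals differ between libraries. Per the submitters' processing notes, fastp, HISAT2, StringTie and RSEM were used; the sources used here give no version, build, annotation or strand setting. Expected counts were rounded, and genes averaging 1 FPKM or more were fitted with edgeR 4.0.16 (R 4.3.3; TMM factors, quasi-likelihood F test, 1 mean per genotype, all 9 libraries). The 3 genotypes shared 1 estimate of each gene's spread, though their spreads differed. Over the tested members the median SD of log2 CPM among libraries was 0.226 in Cxcl10-/-, 0.118 in WT and 0.216 in Cxcr3-/-. SE and p values of the main fit make no allowance for this. Adjusted p values are Benjamini-Hochberg over 10866 genes, with 0.05 as threshold. SE was taken as the log2 fold change over the square root of F. DESeq2 1.42.0, limma 3.58.1 on log2(FPKM + 1), other scalings, filters, GC and length offsets (longest coding transcript, GENCODE M21) and leaving out each library were alternatives. FPKM serves for levels between genes, CPM for 1 gene between libraries. The sources used here name no molecular identifiers, so copies made in amplification cannot be told from separate molecules in the counts.

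Named genes were every called member, the 5 with the smallest p where none was called, isoform families, complex II, the highest and lowest gene of each complex, and up to 3 called genes per pathway list. The members, lists and alternatives were chosen with earlier results of these data known; the core genes of complex I that did not pass, and the genes named as added under offsets, were chosen after their values were seen. Marker lists of megakaryocytes, muscle, neutrophils, the monocyte line, B cells and T or NK cells were also read. Of their tested genes 0 of 5, 0 of 1, 0 of 3, 0 of 4, 0 of 1 and 0 of 2 were higher in Cxcl10-/- than in WT, in that order, and 1 T or NK cell gene was lower. The replicate numbers did not pair the libraries. The values of 1 called member of complex I are not reported here, though it stays in the counts.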

Additional observations from a re-analysis of the deposited data

How the results depend on the processing

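In Cxcl10-/- against WT, members called higher numbered 12, against 22 with total counts only, 20 with DESeq2, 22 with limma and 21 with limma at a pseudocount of 0.1. Members called lower numbered 0, against 6 after quantile normalisation and 3 with GC and length offsets, and the median of 0.22 became 0.08 and 0.09 under these. All genes called numbered 785, against 1498 with DESeq2, 1183 without a filter, 414 with only the groups compared, 518 with the offsets and 442 with a replicate block. With total counts only the split of all genes was 566 higher and 324 lower, against 383 and 402. In Cxcr3-/- against WT, all genes called numbered 0, against 68 with DESeq2 (1 member lower), 38 without a filter and 39 with voom and library weights. In Cxcr3-/- against Cxcl10-/-, all genes called numbered 1142, against 1814 with DESeq2, 423 with only the groups compared and 625 with voom. Members called higher numbered 5, against 15 after quantile normalisation, 3 without a filter, 1 with only the groups compared, 2 with voom and 9 with the offsets. Members called lower numbered 19, against 8 with only the groups compared and 9 with the offsets, and the median of -0.26 became -0.04 after quantile normalisation and 0.00 with the offsets. With limma the split of all genes was 510 higher and 849 lower, against 554 and 588. Members called among any of the 3 genotypes numbered 16, against 29 with DESeq2, 26 with limma, 28 after quantile normalisation and 25 at the pseudocount of 0.1. The cause of these shifts was not tested.

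Leaving out each library gave, in Cxcl10-/- against WT, 1 to 15 members higher, 0 to 1 lower, a median of 0.13 to 0.31 and 193 to 1005 of all genes; in Cxcr3-/- against WT, 0 members and 0 to 6 of all genes (6 without Cxcr3-/- replicate 2); in Cxcr3-/- against Cxcl10-/-, 1 to 4 members higher, 7 to 18 lower, a median of -0.32 to -0.13 and 423 to 1407 of all genes; and 10 to 17 members called among any of the 3 genotypes. In Cxcl10-/- against WT, the lowest counts of all genes and of higher members followed the loss of a WT library. Between the knockouts these counts were lowest without Cxcr3-/- replicate 1 or 3. Lower members were fewest without Cxcr3-/- replicate 1 (7), and numbered 15 without Cxcr3-/- replicate 3. Of the called members, 1 of 12 and 8 of 24 passed without any of the libraries taken singly. Same-numbered libraries deviated with correlations of -0.082 to 0.018, and 1 of 9 correlated best with its own number. With the number as a replicate block, members called higher and lower were 9 and 0 in Cxcl10-/- against WT and 4 and 15 in Cxcr3-/- against Cxcl10-/-, with 0 and 833 genes of all in Cxcr3-/- against WT and against Cxcl10-/-.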
